A study of Mus musculus with 2 samples.

Results

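Interleukin receptor chains were taken as all genes whose RefSeq symbol begins with Il, a number and r, with Il6st added and with Il1rn, Il9r and Il17rb left out. The reference names 39 such genes and 38 of them had a probe on the array, 50 probes in all, among 20651 genes that could be named there. Il11ra2 had no probe matched to it. The chains were read in RNA of mouse cells, labelled as T cells, hybridised to 1-colour arrays, with 1 array for each of 2 genotypes. The wild-type group was labelled as wild-type and the other as SIRT1flox/flox-CD4-Cre, in which floxed Sirt1 alleles meet a Cre recombinase driven by Cd4, a promoter active in both CD4 and CD8 T cells through their thymic development. This sample is called knockout here after its label. Both groups started, per the labels, from spleen and lymph node T cells sorted as naive (CD4+TCR+CD62Lhi CD44lo). Antibodies to CD3 and CD28, each at 2 µg/ml, and human IL-2 at 100 U/ml activated them, and IL-4 (10 ng/ml) with TGFβ1 (2 ng/ml) drove them for 5 days towards T helper 9 (TH9) cells, the CD4 T cells that make IL-9. The treatment protocol gives a culture of up to 6 days. The age of the mice and the number pooled into a sample are not given in the sources used here. The comparison asks which receptor chains differ between these labelled genotypes, in a series on SIRT1, an NAD-dependent deacetylase, and IL-9-producing T cells.

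Most interleukin receptors are built from a chain that binds the cytokine and a chain shared between several cytokines. Chains of the IL-2, IL-3, IL-6, IL-10 and IL-12 families carry JAK kinases on their tails and signal through STAT factors, whereas the receptors of the IL-1 and IL-17 families recruit adaptor proteins such as MyD88 and Act1 and lead to NF-kB. Some members are decoys, which bind a cytokine and pass on no signal. In T cells the receptors for IL-2 and IL-4 feed STAT5 and STAT6, and both pathways are used when TH9 cells form.

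The values are the scanner's processed signal, an intensity with the background subtracted, and differences are knockout minus wild-type on the log2 scale after each array was divided by its 75th percentile (544 for wild-type and 520 for knockout). The error given with a difference is the scanner's own error of both spots, so it holds no spread between cultures or animals. With 1 array per genotype there is no replicate check and no test was possible. Well above background, by the scanner's flag, were 57.1% of wild-type and 65.3% of knockout gene spots, and the lowest such signals were 24.6 and 9.76, so dim probes pass more easily on the knockout array. The Sirt1 probe read 3240 and 2920, and since the position of that probe relative to the floxed part is not known here, it does not check the label. All 9 T cell markers examined were well above background on both arrays, but Il9 itself, with signals of 5.48 and 7.36, was so on neither. Markers of B cells (10 of 10), macrophages and dendritic cells (13 of 13 with a probe) and neutrophils (6 of 6 with a probe) were also well above background on both arrays. Some were brighter than any T cell marker. S100a9 read 92000 and 89000, Siglech 74900 and 67500 and Ms4a1 50400 and 35900, against 25100 and 28200 for Lck. Summed signals were 138859 and 142864 for neutrophil, 111566 and 91657 for B cell and 62670 and 62940 for T cell markers. The bright markers of other cells and the dim Il9 are at odds with the label of sorted naive CD4 T cells driven towards TH9 cells. Why they differ from the label was not tested. A chain's signal therefore need not come from T cells alone, and in such bulk RNA a change in the number of cells and a change in RNA per cell cannot be told apart.

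The median receptor chain was slightly higher in the knockout sample, and 3 chains differed by 2-fold or more. Il22ra2, which encodes the soluble IL-22 binding protein, and Il1rl1, which encodes the IL-33 receptor ST2, were higher, and Il31ra, the IL-31 receptor chain, was lower. Of the 38 chains, 29 were well above background on both arrays, 4 on the knockout array only (a state shared by 8.56% of all named genes), 0 on the wild-type array only, and 5 on neither (28.0% of all named genes). Among the 29, 17 were higher and 12 lower on the knockout array, where 50.4% of all 12958 genes measured on both arrays were higher. At least 2-fold higher were 2 of 29, against 3.95% of all genes, and at least 2-fold lower was 1 of 29, against 3.63%. These shares are near the background of all genes. The scanner error was exceeded upward by 14 chains (29.9% of all genes) and downward by 8 (30.6% of all genes), and 7 chains lay within it. The median difference of the 29 chains was 0.20, with quartiles of -0.30 and 0.56, against a median of 0.00 and quartiles of -0.30 and 0.28 over all genes measured. Centring on the median instead moved all genes up by 0.19, and the chains moved with them to 0.39.

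**Figure D1:**
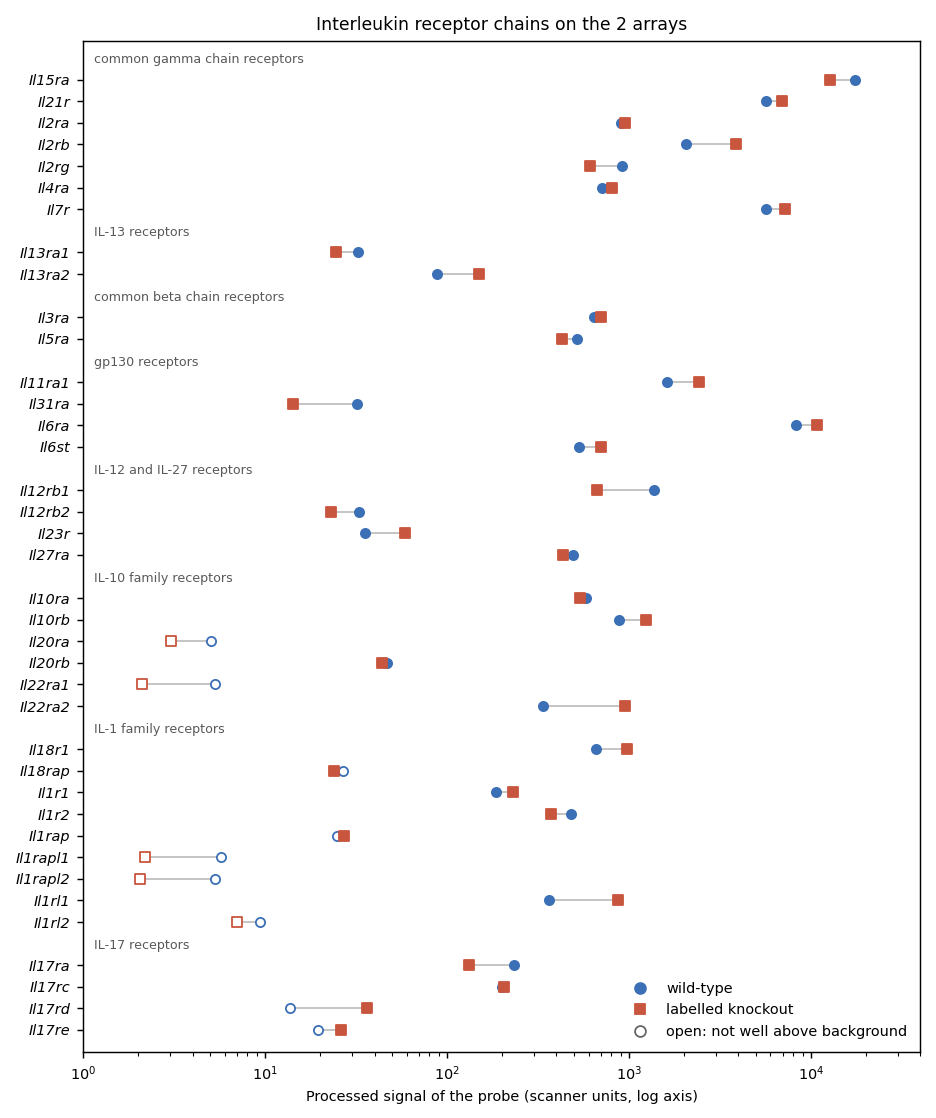
Processed signal of the probe that stands for each of the 38 chains (x axis, scanner units, log axis) on the wild-type array (circles) and the array labelled knockout (squares), 1 array each, grouped by receptor family. Open symbols were not well above background. The pairs of Il22ra2, Il1rl1 and Il31ra lie farthest apart among chains with both symbols filled.

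**Figure D2:**
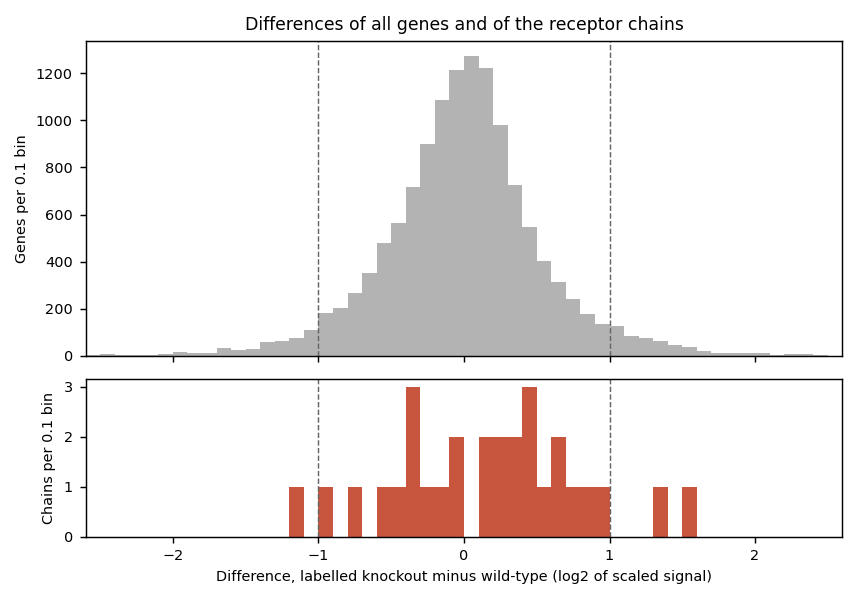
Number of genes per bin of 0.1 on the log2 scale (y axes) by difference between the arrays (x axis, knockout minus wild-type), for the 12958 genes well above background on both arrays (top) and the 29 chains (bottom). Dashed lines mark 2-fold. The chains lie between -1.11 and 1.56, within the wider range of all genes.

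The receptors built on the common gamma chain, which include those for the IL-2 and IL-4 in the cultures, were all measured, and all 7 lay within 2-fold. Il2rb, the signalling chain that the IL-2 and IL-15 receptors share, read 2050 in the wild-type sample and 3880 in the knockout sample. That is a difference of 0.99 ± 0.20 (scanner error), just short of 2-fold, and it became 1.17 with centring on the median. Il2rg, the common gamma chain itself, went the other way with 917 and 612, a difference of -0.52 ± 0.20. Il2ra, the high-affinity chain of the IL-2 receptor (CD25) and a mark of activated T cells, read 904 and 950, within the scanner error at 0.14. The 3 chains of the IL-2 receptor thus differed in both directions between these arrays. Markers of CD8 T and NK cells, which carry Il2rb, were higher on the knockout array in 7 of 8 cases, with a median difference of 0.39. Their summed signals were 20004 and 37514, mostly through Klra1 (8790 and 24700), and those of the other 7 were 11214 and 12814. Their part in the Il2rb value was not tested.

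Of the other private chains of this family, Il7r and Il21r were somewhat higher on the knockout array, and Il4ra and Il15ra had probes of opposite sign. Il7r, the IL-7 receptor chain that keeps naive and memory T cells alive, read 5670 and 7250 (0.42 ± 0.20). Il21r, the receptor of the helper cytokine IL-21, read 5650 and 6960 (0.37 ± 0.20). Both differed by less than 1.5-fold. Il4ra, which binds IL-4 and IL-13 and through which IL-4 acts in these cultures, had 2 such probes. Its brighter probe read 715 and 809 (0.24 ± 0.20) and the dimmer one 208 and 144 (-0.47 ± 0.21), so that the mean over both was -0.11. Il15ra, which presents IL-15 to neighbouring cells, had 2 as well, for different transcripts. The brighter read 17500 and 12700 (-0.40 ± 0.20) and the other 40.2 and 68.6 (0.84 ± 0.28), with a mean of 0.22. No direction can be given for Il4ra or Il15ra from these probes.

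**Figure D3:**
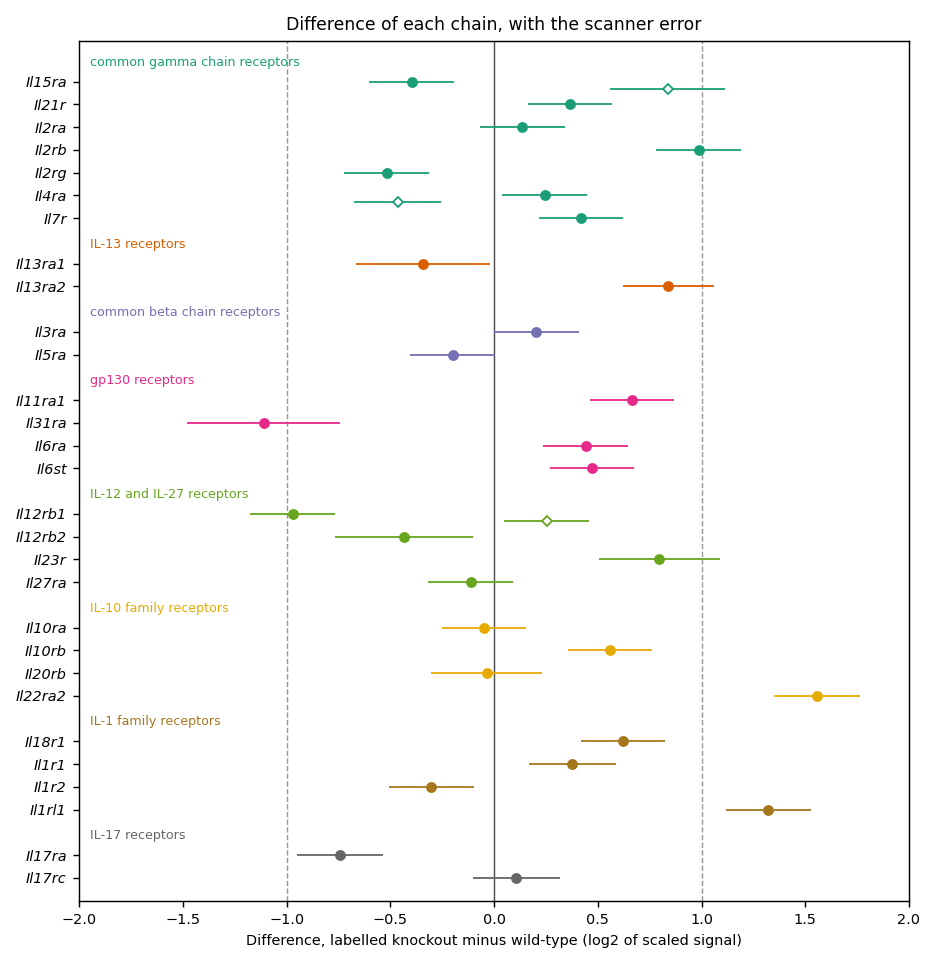
Difference between the arrays (x axis, knockout minus wild-type, log2 of scaled signal) for every probe of a chain that was well above background on both arrays, grouped by family, with bars for the scanner error of 1 spot per array. Filled circles are the probe that stands for the gene and open diamonds a second probe. Dashed lines mark 2-fold, and for Il4ra, Il15ra and Il12rb1 the probes lie on opposite sides of 0.

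Among the chains for IL-13, the decoy was higher and the signalling chain lower. Il13ra2, the decoy that takes up IL-13, read 88.2 and 151, a difference of 0.84 ± 0.22 that was 0.49 with normexp background correction and 1.03, past 2-fold, with centring on the median. Il13ra1, which pairs with Il4ra in the type II IL-4 receptor and is scarce on mouse T cells, was dim on both arrays at 32.5 and 24.5 (-0.34 ± 0.32), a difference of -0.03 with normexp. The alpha chains for IL-3 and IL-5, which pair with a common beta chain on myeloid cells, mast cells, eosinophils and some B cells, were nearly level. Il3ra read 641 and 705 (0.20), and Il5ra read 517 and 430 (-0.20), both within their scanner errors. The beta chains themselves, Csf2rb and its near copy Csf2rb2, whose probes may share signal, differed by 0.80 and 0.80, and the alpha chain for GM-CSF, Csf2ra, by 0.86.

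Chains grouped here with gp130, the shared receptor of the IL-6 family, were higher on the knockout array in 3 of 4 measured cases, where 50.4% of all genes measured were higher. The group holds Il31ra, which pairs with Osmr and not with gp130, and leaves out Il27ra, which is given with the IL-12 receptors. Il6st, which encodes gp130, read 531 and 704 (0.47 ± 0.20). Il6ra, its partner for IL-6, read 8320 and 10800 (0.44 ± 0.20). Il11ra1, the IL-11 receptor chain of stromal cells, read 1610 and 2440 (0.66 ± 0.20), and since Il11ra2 is a near copy of it, its probe may hold signal of both. These 3 chains exceeded their scanner error and stayed below 2-fold. Receptors of this family without an Il symbol split, with Osmr, the oncostatin M receptor, 2.57-fold higher (130 and 319) and Lifr, the LIF receptor, at -0.21. Il31ra, which pairs with Osmr to bind the itch cytokine IL-31, was the only chain at least 2-fold lower, with 32.1 and 14.2 (-1.11 ± 0.37). Both of its signals are close to the lowest ones called well above background, its other probe was above background on neither array, and the difference fell short of 2-fold with centring on the median (-0.93), quantile normalization (-0.91), loess (-0.85), the authors' deposited table (-0.90) and normexp (-0.17). The 250 bases before the Il31ra start in the RefSeq table (GRCm38.p6, chr13:112580663-112580912, minus strand) are shown as those of the chain that was lower, with capitals for a TTCNNNGAA sequence, the core that most STAT dimers bind.
Il31ra: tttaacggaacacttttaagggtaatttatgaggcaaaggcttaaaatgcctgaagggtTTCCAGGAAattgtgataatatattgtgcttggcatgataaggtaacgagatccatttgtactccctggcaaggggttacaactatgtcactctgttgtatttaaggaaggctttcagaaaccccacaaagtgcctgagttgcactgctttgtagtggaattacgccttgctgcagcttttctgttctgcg

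The 4 chains for IL-12, IL-23 and IL-27 all lay within 2-fold, and by the probes that stand for them 3 were lower on the knockout array and Il23r was higher. Il12rb1, which the IL-12 and IL-23 receptors share, read 1370 and 668 with its brighter probe (-0.97 ± 0.20) and 640 and 729 with the other (0.25 ± 0.20). Both probes name the same transcript and their mean was -0.36, so no direction is given for Il12rb1. Il12rb2, the chain that makes the IL-12 receptor of TH1 cells, was dim at 32.8 and 23.2 (-0.43 ± 0.33, and -0.09 with normexp). Il23r, the IL-23 receptor chain of TH17 cells, was higher at 35.5 and 58.9 (0.80 ± 0.29), which was 0.31 with normexp. Il12rb2 and Il23r are neighbours in the genome, and their values lay on opposite sides of 0. Il27ra, which pairs with gp130 for IL-27, read 493 and 436, within its scanner error at -0.11, and turned to 0.07 with centring on the median.

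In the IL-10 family the highest difference of all measured chains was found. Il22ra2, the IL-22 binding protein, is a soluble decoy that dendritic cells of lymphoid tissue and gut secrete and that keeps IL-22 from its receptor. Its single probe read 337 in wild-type and 948 in knockout RNA, 2.94-fold higher (1.56 ± 0.21 on the log2 scale). The difference was 1.32 with normexp and 1.74 with centring on the median, and it stayed above 2-fold in every scaling tried. Markers of macrophages and dendritic cells were higher on the same array in 11 of 13 cases, with a median difference of 0.45. Their summed signals were 89646 and 95379, mostly through Siglech (74900 and 67500), and those of the other 12 were 14746 and 27879. Past 2-fold were Adgre1, C1qc, Mrc1 and Vcam1, which mark macrophages more than dendritic cells, while C1qa (0.10) lay within its scanner error. The dendritic cell genes were mixed, with Flt3 at -0.28, Siglech at -0.08, Zbtb46 at 0.20, Itgax at 0.36 and Xcr1 at 0.69. The part of these cells in the Il22ra2 value was not tested. Il20ra, the next gene along the chromosome, and Il22ra1, the signalling chain for IL-22, were well above background on neither array. Ifngr1, the neighbour on the other side, differed by -0.28 ± 0.20.

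The IL-10 receptor itself was measured through both chains. Il10ra, the chain that binds IL-10, read 580 and 536, a difference of -0.05 within its scanner error that turned to 0.14 with centring on the median. Il10rb, which the receptors for IL-10, IL-22 and type III interferons share, read 881 and 1240 (0.56 ± 0.20). Il10rb lies between Ifnar2 and Ifnar1 in the gene order, and these interferon receptor genes differed by 0.18 and 0.06, both within the scanner error. Il20rb, a chain of the receptors for IL-19, IL-20 and IL-24 in epithelia, was dim and near level at 47.1 and 43.9 (-0.04), and its sign turned with centring on the median, quantile normalization, loess, normexp and the authors' deposited table.

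The IL-1 family holds the other chain at least 2-fold higher. Il1rl1, the ST2 chain that binds IL-33 on TH2 cells, regulatory T cells, mast cells and type 2 innate lymphoid cells, read 363 and 868 with the 1 of its 3 probes that was above background, 2.50-fold higher on the knockout array (1.32 ± 0.20). A second probe for the same transcript read 10.1 and 3.97, and the third, for another transcript, 4.98 and 4.57. Neither was well above background on either array, so the value rests on 1 probe. Il1rl1 stayed above 2-fold by that probe in every scaling tried, from 1.09 with normexp to 1.51 with centring on the median. Its partner Il1rap, the chain that the IL-1 and IL-33 receptors share, was well above background on the knockout array only, at 24.9 and 27.1, a difference of 0.19 within its scanner error of 0.40, and its second probe read 19.4 and 9.35, above background on neither array. No direction is given for Il1rap. Markers of mast cells and basophils, which carry ST2, were above background on both arrays in 6 of 8 cases, of which 4 were higher and 2 lower on the knockout array. Cpa3 (1.72) and Fcer1a (1.49) were past 2-fold, and Kit (0.65) and Hdc (0.41) were higher by less. Mcpt8 (-0.80) and Prss34 (-0.83) were lower. Summed signals of the 8 markers were 1299 and 2128, and Ms4a2 was above background on neither array. The part of mast cells and basophils in the Il1rl1 value was not tested.

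Il18r1, the IL-18 receptor chain of TH1 and NK cells, read 662 and 974 (0.62 ± 0.20). Its partner Il18rap was dim at 26.7 and 24.1, above background on the knockout array only, and no fold is given for it. Il1r1, the signalling receptor for IL-1, read 186 and 231 (0.38 ± 0.21), while Il1r2, the decoy for IL-1, read 483 and 374 (-0.30 ± 0.20). Of the 3 decoys among the chains, Il22ra2 and Il13ra2 were thus higher and Il1r2 lower. Il1rl2, the IL-36 receptor of epithelia and dendritic cells, and Il1rapl1 and Il1rapl2, which act at synapses, were well above background on neither array. The floor of the scanner signal differs between the arrays (Il1rapl2 read 5.30 and 2.07), so differences of such probes are not given.

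Of the chains, 18 lie next to another chain in the gene order, in 7 runs, and the longest run has 6 members. In the order of the chromosome these are Il1r2, Il1r1, Il1rl2, Il1rl1, Il18r1 and Il18rap. The measured differences along it were -0.30 for Il1r2, 0.38 for Il1r1, 1.32 for Il1rl1 and 0.62 for Il18r1, so 3 of the 4 measured members were higher on the knockout array and Il1r2, at its end, was lower. The RefSeq promoter table held 38 windows for 32 of the 39 chains. The sequences below are the 250 bases before both annotated starts of Il1rl1 and before 1 start of Il18r1. These neighbours were the higher members of the run, and for Il18r1 only the window that held TTCNNNGAA is shown. Capitals mark TTCNNNGAA.
Il1rl1, GRCm38.p6 chr1:40429320-40429569, plus strand: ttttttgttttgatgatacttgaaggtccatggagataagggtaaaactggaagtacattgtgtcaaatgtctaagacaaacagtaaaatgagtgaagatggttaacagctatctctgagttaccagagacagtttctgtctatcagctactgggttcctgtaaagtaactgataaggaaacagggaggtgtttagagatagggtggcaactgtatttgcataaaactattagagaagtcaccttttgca
Il1rl1, GRCm38.p6 chr1:40439379-40439628, plus strand: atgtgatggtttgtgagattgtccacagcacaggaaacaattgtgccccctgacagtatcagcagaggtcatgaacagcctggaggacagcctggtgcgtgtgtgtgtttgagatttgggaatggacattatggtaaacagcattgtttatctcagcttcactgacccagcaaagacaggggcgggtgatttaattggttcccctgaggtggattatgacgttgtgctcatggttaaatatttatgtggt
Il18r1, GRCm38.p6 chr1:40465756-40466005, plus strand: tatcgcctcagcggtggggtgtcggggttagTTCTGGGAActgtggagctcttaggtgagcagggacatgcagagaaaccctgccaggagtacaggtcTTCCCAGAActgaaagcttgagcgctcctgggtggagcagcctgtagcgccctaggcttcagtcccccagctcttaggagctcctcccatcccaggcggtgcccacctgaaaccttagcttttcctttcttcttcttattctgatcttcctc

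The sequence TTCNNNGAA, which reads the same on both strands, was found in 5 of the 38 windows (Il12rb2, Il18r1, Il1r2, Il31ra and Il7r) and in 7.02% of all 32851 windows of that length. TTCNNNNGAA, the wider spacing that STAT6 prefers, was found in 4 of the 38 windows, from 3 chains (Il18r1, Il18rap and Il20ra), and in 5.85% of all windows. Each was counted on its own, whether or not it overlapped the other. The window of Il18r1 shown held 2 copies of TTCNNNGAA and that of Il31ra 1, and neither window of Il1rl1 held either sequence. Since that window of Il18r1 was chosen for holding TTCNNNGAA, it makes no contrast with Il1rl1. The TTCNNNNGAA of Il18r1 lies in a window not shown. The chains whose windows held TTCNNNGAA included both higher and lower ones, and a match is a stretch of letters, not a site shown to be bound.

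IL-17 receptor chains were low and mixed. Il17ra, the chain common to the receptors of this family, read 233 and 133 (-0.74 ± 0.21, and -0.32 with normexp). Il17rc, its partner for IL-17A and IL-17F, read 200 and 206 (0.11) and lay within its scanner error. Il17rd, also known as Sef, an inhibitor of growth factor signalling, was above background on the knockout array only, with 13.7 and 36.6, at least 1.56-fold higher. Such a bound divides the brighter signal by the dim one, or by the lowest signal above background on the dim array where that is higher. It takes no account of the scanner error. Il17re, the receptor chain for IL-17C, was also above background on the knockout array only, with 19.5 and 26.2 and a bound of 1.11-fold higher. Its difference was 0.49 against a scanner error of 0.43, so a direction for Il17re is uncertain.

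Genes that act with these chains inside the cell all lay within 2-fold, as did 11975 of all 12958 genes measured. All 4 JAK kinases, 7 STAT factors, 8 SOCS inhibitors and 8 adaptors of the IL-1 and IL-17 receptors were above background on both arrays. Of these 27, 0 differed by 2-fold, where 3.95% of all genes were at least 2-fold higher and 3.63% lower. In a list this short, 0 is near those shares. Jak3, the kinase bound to the common gamma chain, had the largest difference of the kinases at -0.58 ± 0.22, Stat6 the largest of the STAT factors at 0.25 ± 0.20, Socs5 the largest of the inhibitors at 0.70 ± 0.21 and Irak1, a kinase of the IL-1 receptor pathway, the largest of the adaptors at 0.53 ± 0.20. The medians were 0.03 for the kinases, 0.05 for the STAT factors, 0.09 for the inhibitors and 0.06 for the adaptors. Among 9 listed partners without an Il symbol, which include the secreted cytokine subunit Ebi3 (0.14), the median was 0.17, and Osmr was the 1 past 2-fold.

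Of 28 interleukins listed as ligands, 27 had a probe and 16 were above background on both arrays, with 10 higher, 6 lower and a median of 0.44. The list also holds Il34, which does not bind these chains and was above background on neither array. Il1b, made by macrophages and other myeloid cells, read 1469 and 3802, 2.71-fold higher. Il33, the ligand of ST2 and a product of stromal and endothelial cells, read 1050 and 2480, 2.47-fold higher. Of the 16 ligands measured on both arrays these were the 2 past 2-fold, and 0 were lower by as much, against 3.95% and 3.63% of all genes. Il20, an epithelial cytokine, was above background on the wild-type array only, with 30.2 and 2.08, at least 2.96-fold lower on the knockout array. In 15 cases a ligand and a chain of its receptor were both measured. Both were higher on the knockout array in 8, both lower in 4 and of opposite sign in 3, some of them within the scanner error. Of all genes measured, 50.4% were higher, but this is a share of single genes. No like share was computed for pairs of genes, so the pair counts stand without a background. Il17ra and Il20rb serve several ligands, and Il4ra and Il15ra, for which no direction is given, were counted by their brighter probes. Il33 and Il1rl1 were both past 2-fold, at 1.31 and 1.32. Il17a and Il17ra were both lower (-0.95 and -0.74), and Il11 with Il11ra1 (-0.40 and 0.66) had opposite signs, as had Il15 with the brighter probe of Il15ra (0.93 and -0.40). Markers of stroma, endothelium and red cells were above background on both arrays in 7 of 7 cases, with summed signals of 3588 and 5521. The 4 stromal ones (Col1a1, Col1a2, Col3a1 and Pdgfrb) were all higher on the knockout array, 3 of them past 2-fold, with sums of 2892 and 4985, and the 3 of endothelium and red cells were lower (696 and 536). The B cell markers were lower in 9 of 10 cases, with a median of -0.22. The part of these cells in the values of the ligands and receptors was not tested.

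**Figure D4:**
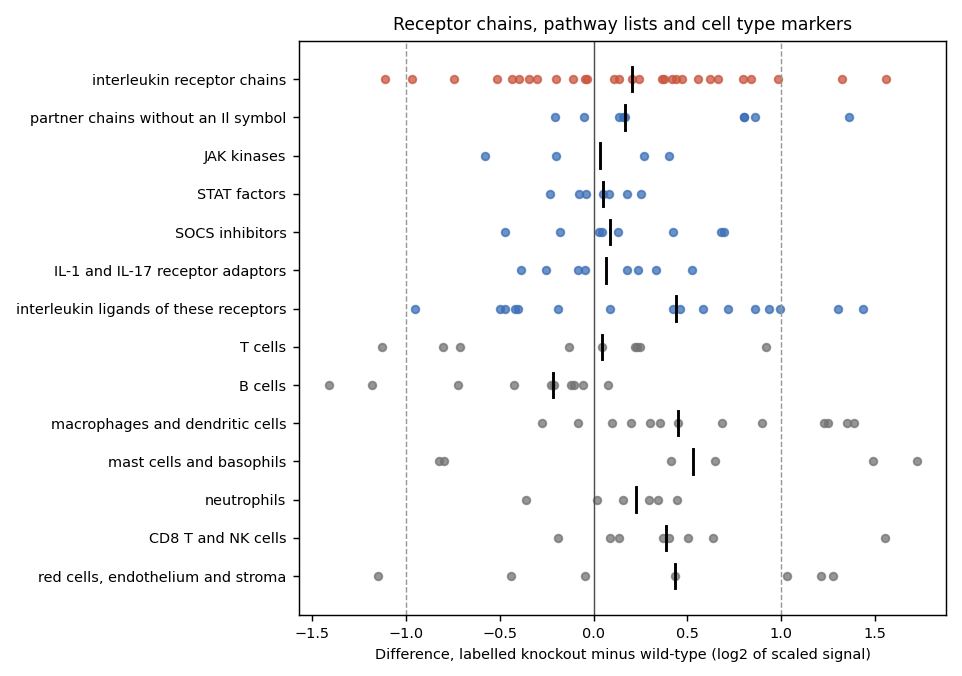
Difference between the arrays (x axis, knockout minus wild-type, log2 of scaled signal) for each gene well above background on both arrays, in the receptor chains (top row), the pathway lists and the cell type marker lists. Black bars are medians and dashed lines mark 2-fold. The chains have a median of 0.20, the macrophage and dendritic cell markers 0.45 and the B cell markers -0.22.

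Only 3 chains had more than 1 probe above background on both arrays, Il4ra, Il12rb1 and Il15ra, and in all 3 the probes differed in sign. Over all 2902 genes with several such probes, 40.2% had probes of both signs, and the gap between the highest and lowest probe had a median of 0.33. The gaps were 0.71 for Il4ra, 1.22 for Il12rb1 and 1.23 for Il15ra. For the 26 other measured chains only 1 probe was above background on both arrays, so no second probe of that kind could be compared. Some of them had dimmer probes as well. A dim probe for the same transcript of Il1rl1 read 10.1 and 3.97, where the probe used read 363 and 868. Across the scalings, the probe rules and the authors' deposited table, 24 of the 29 chains kept the sign of their difference, 16 higher and 8 lower on the knockout array. The sign of Il4ra, Il10ra, Il15ra, Il20rb and Il27ra turned in at least 1 of these. Il12rb1 was counted among the 8 lower, though its second probe was higher at 0.25. All settings reuse the same 2 arrays, so a kept sign is no replicate. Keeping outlier spots or ignoring the background flag turned 0 signs and could hardly change these values.

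**Figure D5:**
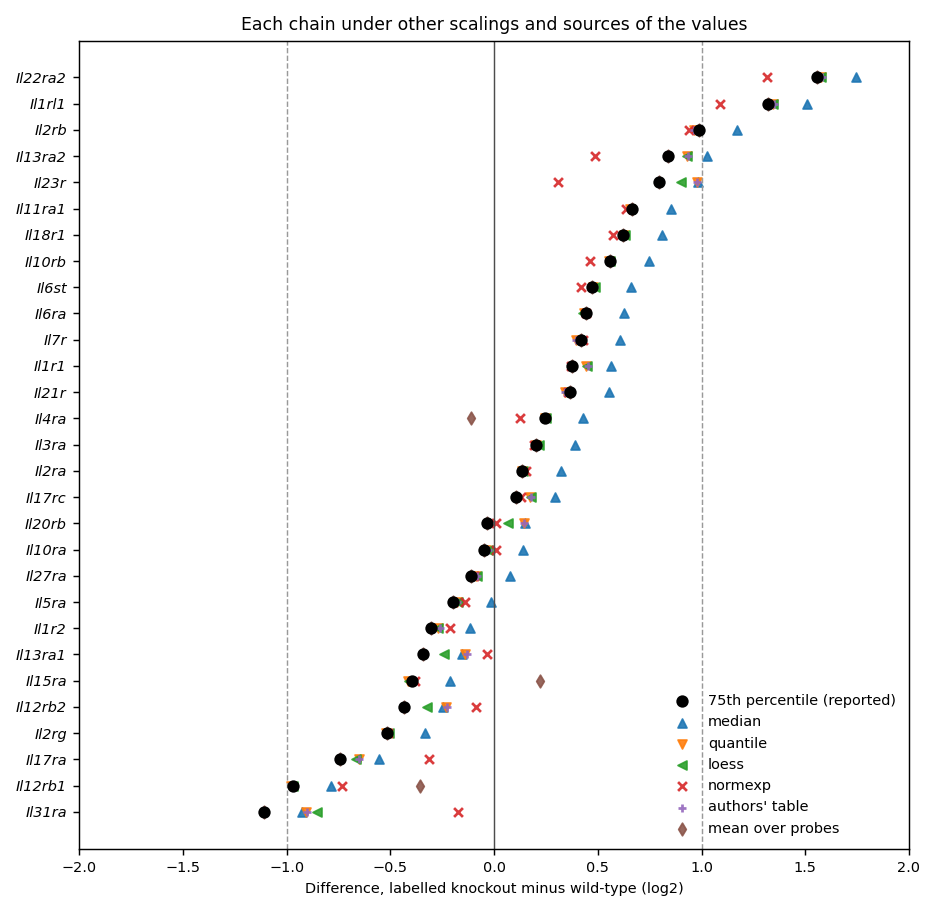
Difference between the arrays (x axis, knockout minus wild-type, log2) for the 29 chains well above background on both arrays, ordered by the reported value (black circles), under other scalings, normexp background correction, the authors' deposited values and the mean over probes. Dashed lines mark 2-fold. Il22ra2 and Il1rl1 stay above 2-fold under all of them, and Il31ra moves from -1.11 to -0.17 with normexp.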

How the data were processed

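Per the file headers, arrays of 1 slide were extracted with Agilent Feature Extraction 11.0.1.1. For each spot the deposited files hold a processed intensity, its error, median pixel intensities and flags. A value table of the same arrays, also deposited, is on the log2 scale (medians of 5.36 in both columns), and how the authors normalized it is not given in the sources here. Control spots and outlier spots (228 and 138 of 43020 gene spots) were left out and 0 gene spots were saturated. Of 39411 probes, 27220 were named by matching RefSeq accessions, without version, to a GRCm38.p6 table. The headers name another build, so coordinates are printed only for RefSeq's own promoter windows. From the log2 signals each array's 75th percentile over gene probes was subtracted. The brightest probe well above background on 1 or both arrays stood for a gene, which was counted as measured if well above background on both.

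Per the labels, groups followed the genotype, with 1 array each, so no test was run, and the number of arrays limits the precision. The members and lists were chosen with earlier results of these data known. The named genes were all chains and, from each pathway list, up to 3 members past 2-fold or the 1 with the largest difference. The partner chains Csf2rb, Csf2rb2, Csf2ra and Lifr, the neighbours Ifngr1, Ifnar1 and Ifnar2, the pairs of ligand and chain and the marker subsets were chosen after their values were seen. A listed marker gene is not reported here. Alternatives (limma 3.58.1, R 4.3.3) were the median, quantile and loess scalings, normexp with an offset of 50 on the median intensity followed by quantile normalization, the authors' deposited log2 values, the mean over probes, outlier spots kept, members of any background flag and thresholds of 1.5-fold and 3-fold. The scaling and calling were tested on simulated data, in which 100% of 200 probes changed by 4-fold and 3.5% of those changed by 1.5-fold passed 2-fold, among 21863. Both simulated arrays came from the wild-type signals with only the scanner error and a constant shift added. They held no spread between cultures or animals, so they cannot give the rate of false calls between real samples. Folds between 1.5 and 4 were not simulated.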

Additional observations from a re-analysis of the deposited data

How the results depend on the processing

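The 2 chains at least 2-fold higher, Il1rl1 and Il22ra2, passed that threshold under all scalings and sources of values. Centring on the median gave 4 such chains, adding Il2rb and Il13ra2, where 6.18% of all genes passed. A threshold of 1.5-fold gave 7 higher and 3 lower chains, where 10.96% and 11.95% of all genes passed, and 3-fold gave 0 higher and 0 lower. The count of chains at least 2-fold lower, 1 in the reported setting, was 0 with centring on the median, quantile normalization, loess, normexp and the authors' deposited table, since Il31ra then lay within 2-fold. It was 4 with all 38 chains whatever their background flag, where 20.8% of all genes were lower by as much. The added ones were chains at the floor of both arrays. With the mean over probes or with outlier spots kept both counts were those reported. The median difference of the chains ranged from 0.12, with all chains whatever their flag, to 0.39, with centring on the median, where all genes measured moved to 0.19. Chains higher by any amount numbered 17 to 20. The count of 20 came from 29 chains with centring on the median, where 67.2% of all genes were higher. It also came from all 38 chains whatever their flag, where 41.8% of all genes were higher. Normexp moved 8 of the 29 differences by more than their scanner error, and the mean over probes moved 3, Il4ra, Il12rb1 and Il15ra. No paired analysis was possible because each genotype has 1 array. Signals near background limit Il31ra, Il12rb2, Il13ra1, Il23r and Il20rb.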
